A study of Mus musculus with 6 samples.

Results

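The receptors that let leukocytes sense antibodies were followed across the cells of the inflamed joint. The group comprised 8 genes, chosen by name, which were all found among the 20394 genes of the deposited counts. They were the activating IgG receptors Fcgr1, Fcgr3 and Fcgr4, the signalling chain Fcer1g, the inhibitory IgG receptor Fcgr2b, the IgE-binding chain Fcer1a, the neonatal Fc receptor gene Fcgrt and the IgM receptor gene Fcmr. C57BL/6 mice had been immunized with methylated bovine serum albumin (mBSA) in complete Freund's adjuvant and challenged with mBSA in the knee on day 21, which gives antigen-induced arthritis (AIA), a joint inflammation driven by T cells and immune complexes. Of the 6 samples, 2 came from mice given the vehicle PBS and 4 from mice given 300 μg PEPITEM, a peptide that limits leukocyte migration, by intraperitoneal injection. CD45+ cells were sorted from digested joints, and the 3′ ends of their messenger RNA were counted cell by cell as UMIs (unique molecular identifiers, 1 for each captured molecule). Progenitor and precursor cells were among them, and the tissue of the joint from which these came was not tested. The wild type mice were males obtained at 8 weeks of age and kept for 2 weeks or more before use.

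Antibodies bound to antigen cluster Fc receptors on the cell surface. Mouse Fcgr1 (FcγRI), Fcgr3 (FcγRIII) and Fcgr4 (FcγRIV) signal through the immunoreceptor tyrosine-based activation motif of the shared Fcer1g chain, and in immune complex arthritis they trigger phagocytosis, cytokine release and degranulation. Fcgr2b (FcγRIIB) carries an inhibitory motif that recruits the phosphatase encoded by Inpp5d, so the balance of activating and inhibitory receptors on a cell sets how readily it responds to IgG. Fcgrt encodes FcRn, which pairs with β2-microglobulin and rescues IgG from degradation, Fcer1a binds IgE on mast cells and basophils, and Fcmr binds IgM, mainly on B cells.

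The 3 activating receptor genes shared Fcer1g as a partner but differed in the order of the classes that held them, so the bases before their start sites are shown. Fcgr2b (chr1:170958617-170976547, minus strand), Fcgr4 (chr1:171018920-171029761, plus strand), Fcgr3 (chr1:171051174-171064935, minus strand) and Fcer1g (chr1:171229572-171234365, minus strand) lay within 276 kilobases of chromosome 1 (GRCm38, GENCODE vM21), and Fcgr1 lay on chromosome 3 (chr3:96282909-96293969, minus strand). The sequences are the 120 bases before the RefSeq start (GRCm38.p6), written 5′ to 3′ on the strand of the gene, and they come from chr3:96293970-96294089 for Fcgr1, chr1:171059404-171059523 for Fcgr3 and chr1:171018806-171018925 for Fcgr4. Capitals mark GAGGAA on either strand, the letters to which the myeloid factor PU.1 is known to bind, and TTCNNNGAA, the letters of a STAT site, and the motifs did not overlap.
Fcgr1: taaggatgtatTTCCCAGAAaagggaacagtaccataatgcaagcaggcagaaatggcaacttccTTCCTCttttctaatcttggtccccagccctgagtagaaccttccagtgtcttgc
Fcgr3: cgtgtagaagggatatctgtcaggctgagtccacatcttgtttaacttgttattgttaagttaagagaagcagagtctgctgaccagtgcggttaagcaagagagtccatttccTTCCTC
Fcgr4: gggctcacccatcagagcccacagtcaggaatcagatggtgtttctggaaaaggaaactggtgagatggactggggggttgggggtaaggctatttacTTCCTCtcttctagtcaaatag
GAGGAA on either strand stood 55 to 50 bases before the start of Fcgr1, 6 to 1 bases before that of Fcgr3 and 22 to 17 bases before that of Fcgr4. A second RefSeq start of Fcgr3, not shown, had it 15 to 10 bases before. It was present in this window in 4 of the 8 genes, with Fcmr as the fourth, and in 11.6% of 32851 promoters of the table. TTCNNNGAA was present only in the window of Fcgr1 among the 8 genes and in 3.15% of all promoters. The letters are a description of the sequence, and no binding was measured.

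The counts held 32953 cells from 6 libraries, told apart by the suffix of each cell barcode, 1 to 6. No source used here links these numbers to the PBS and PEPITEM samples, so the libraries are of unknown treatment, no difference between treatments is given and no p-value is printed. The depth was 47273569 to 123367661 UMIs and 2919 to 9345 cells per library. Of 32815 distinct barcodes, 138 occurred in more than 1 library. Ptprc, which encodes CD45, was detected in 95.8% of the cells. A cell was placed in the class of which it held the most markers (at least 3 of 6), which gave 32629 cells a class, and 19 classes with at least 50 cells are described. Levels are counts per 1000000 UMIs of a class (CPM), pooled over all libraries and given with the range over libraries that held at least 10 cells of the class. One tag is counted per RNA molecule whatever the length of the transcript, so levels of different genes are set side by side in CPM. Only 0.520% of the 31-base words in the last 500 bases of Fcgr3 transcripts also occurred in Fcgr2b, and 3.06% of those of Fcgr2b occurred in Fcgr3, so the 3′ ends of these near relatives are mostly distinct.

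Some cells held markers of more than 1 lineage, in the neutrophils and in other classes. The summed level of the 6 markers of C1q macrophages (C1qa, C1qb, C1qc, Ms4a7, Apoe and Adgre1) was 1876 CPM in all cells gated as mature neutrophils, with a range over libraries of 1039 to 3979 CPM and all 6 markers at 10 CPM or more. It was 373 CPM (259 to 1012 CPM) in the 6680 mature neutrophils that were at least 2 markers ahead of every other lineage, and 12329 CPM in C1q macrophages. Such cells are called unambiguous here, both neutrophil classes counting as 1 lineage and monocytes with macrophages as another. Their values stand beside those of all gated cells for Fcgr1, Fcgr3, Fcgr4 and Fcgr2b in neutrophils and for the activating to inhibitory ratio. Neutrophil levels and shares of Fcer1g, the shares of Fcgr3-positive neutrophils and the split by cycling are from all gated cells only. The part of the macrophage markers in the other receptor levels was not tested.

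Fcer1g was the most abundant of the 8 genes in each myeloid class described below. Its level was 2815 CPM in nonclassical monocytes (2605 to 3307 CPM over 5 libraries), and these did not overlap with those of the class next in order. In the clusters of nonclassical monocytes, where 108 of 653 cells had this gate, it was 1805 CPM, near the levels that follow. C1q macrophages (1797 CPM), classical monocytes (1773 CPM), Arg1 macrophages (1710 CPM), mature neutrophils (1467 CPM), granule-rich neutrophils (1381 CPM), type 2 dendritic cells (1362 CPM), mast cells (1219 CPM) and natural killer (NK) cells (1171 CPM) followed, and the ranges of neighbours in this order overlapped. Below NK cells there was a gap to plasmacytoid dendritic cells, with 665 CPM and a range of 577 to 792 CPM against 980 to 1343 CPM in NK cells. Type 1 dendritic cells held 352 CPM.

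Fcer1g was detected in 98.1% of mature neutrophils (95% Wilson interval 97.8 to 98.4%) at a median of 6002 UMIs per cell, in 99.3% of classical monocytes at 16965 UMIs and in 97.7% of NK cells at 8801 UMIs. T and B cells, most of which lack the chain, gave the background of this measure. The share was 31.2% of T cells at a median of 9309 UMIs and 6.60% of B cells at 5777 UMIs. With every cell thinned to 3000 UMIs, it was 96.7% of mature neutrophils, 98.2% of classical monocytes, 93.9% of NK cells, 21.4% of T cells and 4.15% of B cells, so the share in T cells was above that in B cells at equal depth. Thinning left out 746 shallower mature neutrophils, 46 classical monocytes, 8 NK cells, 22 T cells and 195 B cells. These intervals, like all those given here, cover counting error only.

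**Figure D1:**
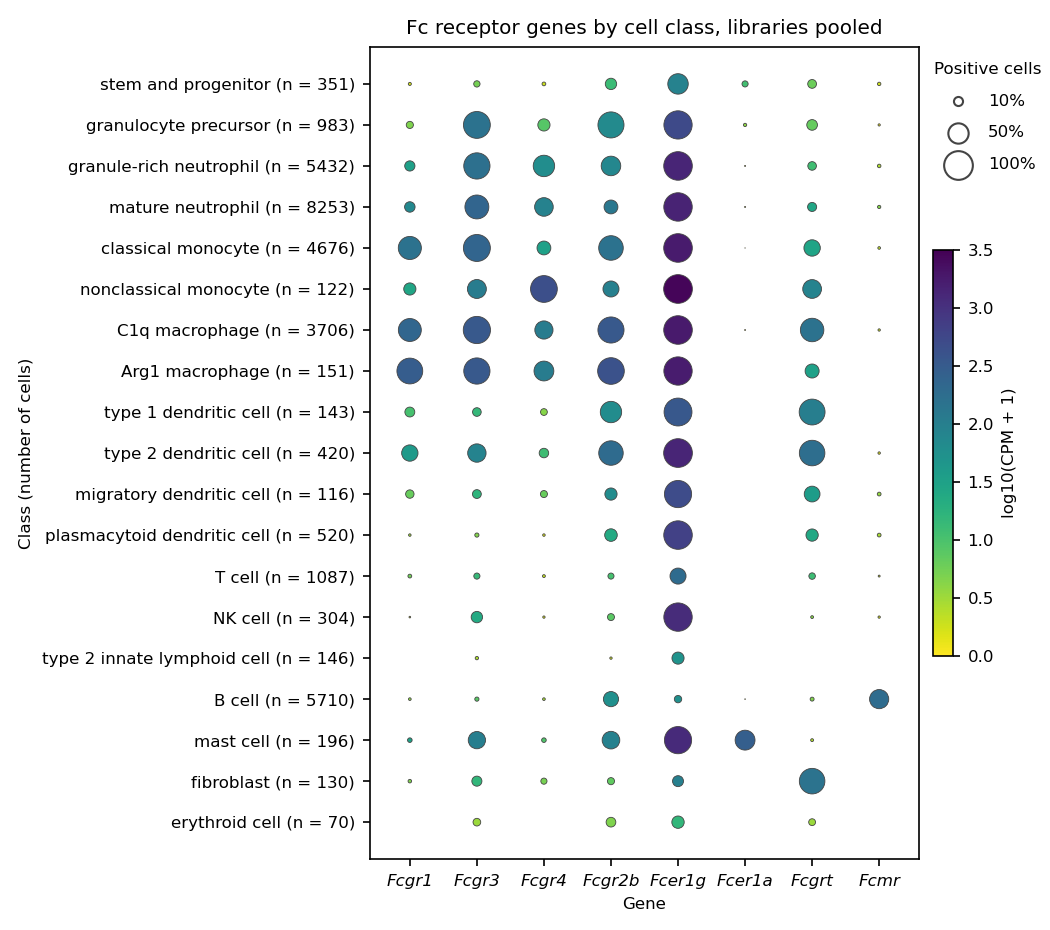
The 8 genes (columns) in the 19 classes with at least 50 cells (rows, with the number of cells), all libraries pooled. The area of a circle is the percent of cells with at least 1 UMI and the color is log10(CPM + 1). Fcer1g fills most of the myeloid rows, while Fcer1a marks mast cells and Fcmr B cells.

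Fcgr3, the low-affinity activating receptor, was the most abundant Fcγ receptor gene in neutrophils, granulocyte precursors and classical monocytes when pooled over libraries. This order did not hold in each library of all gated cells. The highest library of Fcgr2b was at 291 CPM in mature and 256 CPM in granule-rich neutrophils, against 281 and 224 CPM for Fcgr3. In classical monocytes the highest library of Fcgr1 was at 460 CPM, against 303 CPM for Fcgr3. Pooled levels of Fcgr2b were level with Fcgr3 in C1q macrophages and above it in Arg1 macrophages and dendritic cells, and Fcgr4 was above Fcgr3 in nonclassical monocytes. The level of Fcgr3 was 348 CPM in Arg1 macrophages, 344 CPM in C1q macrophages (297 to 414 CPM), 237 CPM in mature neutrophils (196 to 281 CPM) and 233 CPM in classical monocytes (197 to 303 CPM). The ranges of C1q macrophages and mature neutrophils did not overlap, whereas those of mature neutrophils and classical monocytes did. The gene was already present in granulocyte precursors, which express the primary granule genes Elane and Mpo, at 153 CPM (141 to 173 CPM), and it was at 168 CPM in granule-rich neutrophils (159 to 224 CPM). Mast cells held 102 CPM, type 2 dendritic cells 83.9 CPM and NK cells 22.4 CPM. In T cells it was 13.3 CPM. In unambiguous cells Fcgr3 was at 216 CPM in mature neutrophils (167 to 242 CPM) and 149 CPM in granule-rich ones (105 to 169 CPM). Unambiguous granulocyte precursors held 172 CPM (158 to 209 CPM). By this count they lay above granule-rich neutrophils, with overlapping ranges.

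At 3000 UMIs per cell, Fcgr3 was detected in 56.2% of C1q macrophages, 46.9% of classical monocytes, 46.6% of mature neutrophils, 38.5% of granule-rich neutrophils and 32.2% of granulocyte precursors. The corresponding share was 6.76% of NK cells and 1.22% of T cells. As deposited, with unequal depth, 89.9% of C1q macrophages, 69.4% of mature neutrophils, 15.8% of NK cells (12.1 to 20.3%) and 4.60% of T cells (3.51 to 6.01%) were positive.

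Fcgr1, the high-affinity IgG receptor, was held by macrophages and monocytes. It was at 301 CPM in Arg1 macrophages (163 to 458 CPM over 5 libraries), at 224 CPM in C1q macrophages (lowest library 184, median 203, highest 304 CPM) and at 151 CPM in classical monocytes (lowest 62.5, median 125, highest 460 CPM). The spread between libraries in classical monocytes was thus wider than that in C1q macrophages, and it covered the whole range of the latter. Library 1 was the highest in both classes. Without library 1 the level in classical monocytes was 112 CPM.

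Cells gated as classical monocytes differed in Fcgr1 with the cluster to which they belonged. The 1184 cells that lay in clusters of C1q macrophages held 404 CPM, against 73.9 CPM in the 3020 cells in clusters of classical monocytes. Fcgr3 differed less between these cells, with 334 and 215 CPM. Fcgr4 was at 98.9 and 10.3 CPM and Fcgr2b at 351 and 87.5 CPM.

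In mature neutrophils Fcgr1 depended on which cells were counted. The level was 72.3 CPM in all cells with this gate and 11.2 CPM (6.31 to 27.9 CPM) in unambiguous cells, and it was 2.44 CPM in clusters of mature neutrophils. Unambiguous granule-rich neutrophils held 2.35 CPM, against 32.5 CPM in all cells with that gate. The share of Fcgr1-positive cells among unambiguous mature neutrophils was 2.89% (2.51 to 3.32%), against 1.12% of T cells (0.628 to 2.00%) counted in the same way. At 3000 UMIs per cell these shares were 1.29% and 0.624%. C1q macrophages held 18.4-fold more Fcgr1 than mature neutrophils in unambiguous cells (207 against 11.2 CPM), with higher values in 6 of 6 libraries.

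Fcgr4, the receptor that binds IgG2 subclasses, had another order of classes. Nonclassical monocytes, the patrolling cells of the vasculature, held 460 CPM. The value was 300 CPM in library 1, 446 CPM in library 2, 360 CPM in library 4, 371 CPM in library 5 and 668 CPM in library 6, and library 3 had only 8 such cells. Each of these values was above the highest library of every other class with at least 50 cells. In the clusters of nonclassical monocytes, which held 653 cells, the level was 108 CPM. Of these cells, 108 were gated as nonclassical monocytes, and they held 537 CPM. Among the others were 224 cells gated as mature neutrophils, 217 as granule-rich neutrophils and 85 as classical monocytes. Arg1 macrophages (111 CPM), C1q macrophages (109 CPM, 46.4 to 144 CPM), mature neutrophils (89.5 CPM, 70.7 to 149 CPM), granule-rich neutrophils (61.7 CPM) and classical monocytes (31.6 CPM, 10.5 to 90.8 CPM) came next with ranges that overlapped between neighbours.

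Along the neutrophil series Fcgr4 was at 7.36 CPM in granulocyte precursors (3.51 to 9.83 CPM), whereas Fcgr3 was at 153 CPM in the same cells. In cycling granule-rich neutrophils, which hold Fcnb and Mki67 or Top2a, Fcgr4 was at 35.8 CPM, and it was at 80.2 CPM in the other granule-rich neutrophils. Unambiguous mature neutrophils held 85.3 CPM (74.3 to 105 CPM) and unambiguous granule-rich neutrophils 56.2 CPM (52.2 to 60.9 CPM), so these 2 ranges did not overlap. The split between these classes was not sharp. In number of markers 3852 of 5432 granule-rich and 1834 of 8253 mature neutrophils were tied with another class, and marker UMIs placed them. Counting both neutrophil classes as 1 lineage leaves ties between them among the unambiguous cells. Fcgr4 was at 54.9 CPM in 1031 mature neutrophils in clusters of granule-rich ones. Among unambiguous cells of these 2 classes 41.4% of 6128 genes had ranges that did not overlap, and of the 5 receptor genes that reached 10 CPM Fcgr4 was the only one. With all gated cells the ranges of the 6 receptor genes tested all overlapped, where 18.5% of all genes did not.

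Nonclassical and classical monocytes differed in most of the 8 genes. Fcgr4 was 14.5-fold, Fcgrt 3.14-fold and Fcer1g 1.59-fold higher in nonclassical monocytes, and Fcgr1 (26.4 against 151 CPM) and Fcgr3 (109 against 233 CPM) were lower, all with ranges that did not overlap. Fcgr2b was at 96.5 and 150 CPM with overlapping ranges. Thus 5 of the 6 genes at 10 CPM or more had separate ranges, where 21.0% of 8212 genes did. Fcgr4 provided 77.3% of the activating receptor UMIs of nonclassical monocytes, Fcgr3 provided 18.3% and Fcgr1 4.44%. In the clusters of nonclassical monocytes, in which most cells had other gates, 57.1% came from Fcgr3, 28.4% from Fcgr4 and 14.5% from Fcgr1. The 108 gated nonclassical monocytes in these clusters held 537 CPM of Fcgr4, 107 CPM of Fcgr3 and 23.0 CPM of Fcgr1. In gated classical monocytes the shares of activating receptor UMIs were 7.61% for Fcgr4, 56.0% for Fcgr3 and 36.4% for Fcgr1.

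**Figure D2:**
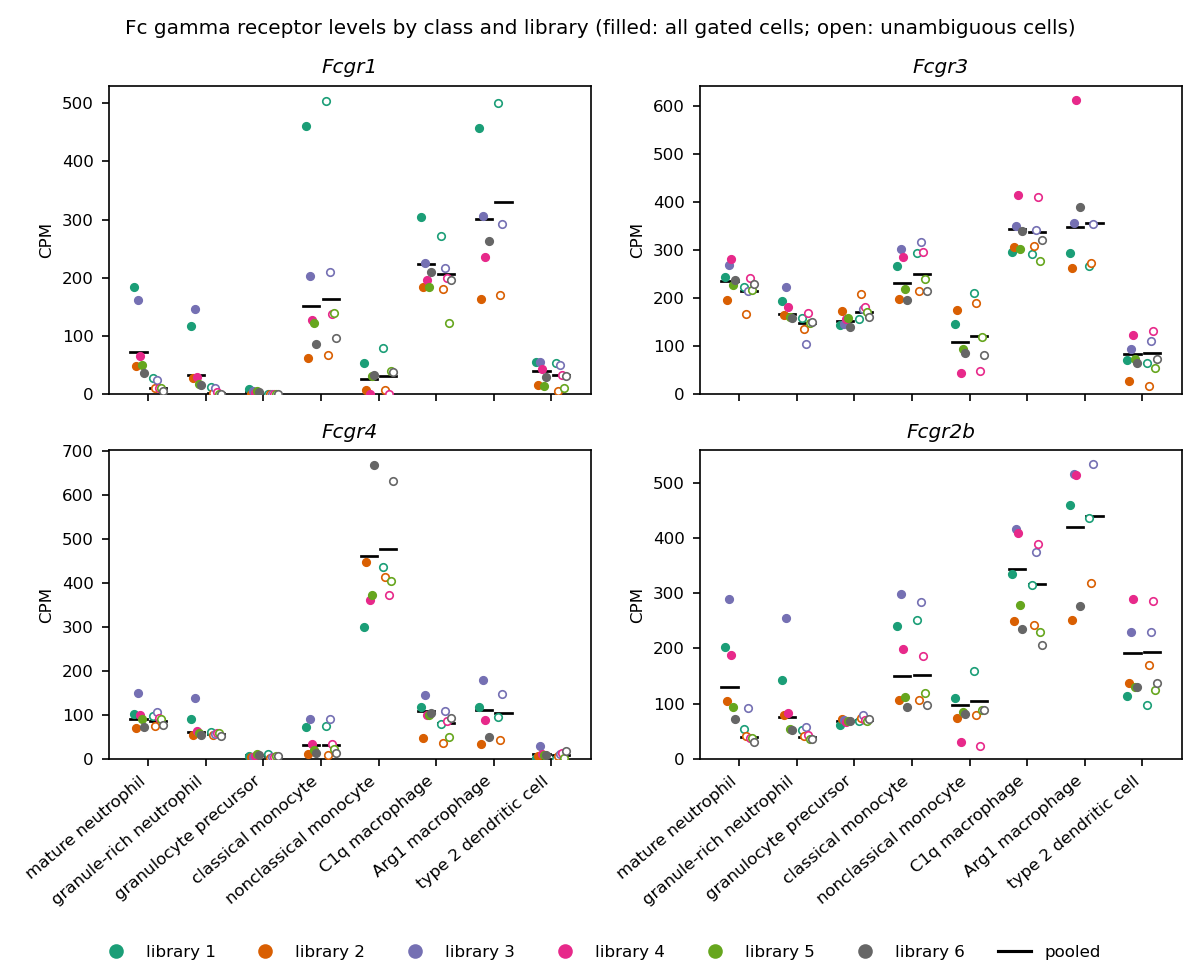
Levels in CPM (vertical axes) of the 4 Fcγ receptor genes in 8 myeloid classes, 1 point for each library with at least 10 cells and a black line for the pooled value. Filled points use all gated cells and open points the unambiguous ones. In both neutrophil classes the pooled lines of Fcgr1 and Fcgr2b are far lower for unambiguous cells, while those of Fcgr3 and Fcgr4 stay close, although library 3 of granule-rich neutrophils moves from 138 to 56.0 CPM of Fcgr4.

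Fcgr2b, the inhibitory receptor, was highest in macrophages. Its level was 420 CPM in Arg1 macrophages (252 to 517 CPM), 345 CPM in C1q macrophages (lowest 235, median 307, highest 417 CPM), 191 CPM in type 2 dendritic cells (113 to 290 CPM) and 150 CPM in classical monocytes (94.0 to 299 CPM). The ranges of neighbours overlapped. Mast cells held 94.9 CPM, granulocyte precursors 67.8 CPM (60.2 to 71.9 CPM), type 1 dendritic cells 63.4 CPM and B cells 55.9 CPM (48.1 to 70.6 CPM). In T cells it was at 9.81 CPM.

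In neutrophils Fcgr2b was at 130 CPM in all cells gated as mature and at 38.7 CPM (29.8 to 91.3 CPM) in unambiguous ones, with 11.7 CPM in clusters of mature neutrophils. Unambiguous granule-rich neutrophils held 38.5 CPM (35.1 to 57.5 CPM), and granulocyte precursors, also counted as unambiguous cells, held 71.0 CPM (67.5 to 79.5 CPM). The precursors were therefore above both neutrophil pools when pooled over libraries, while the highest library of mature neutrophils lay above the precursors. Library 3 had the highest Fcgr2b of mature neutrophils by either count.

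C1q macrophages were compared with classical monocytes and with mature neutrophils. Against classical monocytes they held 2.30-fold more Fcgr2b, 3.44-fold more Fcgr4 and 1.48-fold more Fcgr3, higher in 6 of 6 libraries each, yet with overlapping ranges. Fcgrt, with 151 against 27.5 CPM, was the only 1 of the 6 receptor genes with ranges apart, where 37.0% of 8321 genes were. These values include the 1184 of 4676 classical monocytes that lay in clusters of C1q macrophages. The 3020 in clusters of classical monocytes held 73.9 CPM of Fcgr1, 10.3 CPM of Fcgr4 and 87.5 CPM of Fcgr2b. C1q macrophages in their own clusters held 230, 109 and 350 CPM. Unambiguous cells do not separate these 2 classes, which count as 1 lineage. Fcgrt of C1q macrophages was 235 CPM in cells at least 2 markers ahead of every class and 95.1 CPM in clusters. Against mature neutrophils 3 of 6 receptor genes (Fcgr3, Fcer1g and Fcgrt) were higher with ranges apart in all gated cells, where 51.5% of all genes were higher in this way. In unambiguous cells 5 of 6 were higher with ranges apart, where 65.3% of all genes were, and Fcgr4 was the exception with 80.3 CPM in macrophages and 85.3 CPM in mature neutrophils.

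The C1q macrophages were of 3 kinds. Those with at least 3 of the resident markers Lyve1, Cd163, Folr2, Timd4, Cbr2 and Gas6 made up 1952 cells. Cells with a UMI of the interferon-induced chemokine gene Cxcl9 and without this set made up 293 cells, and 1461 cells were neither. Fcgr1, Fcgr4 and the inhibitory Fcgr2b were higher in Cxcl9 macrophages than in resident ones, FcRn was lower, and the ranges of Fcgr3 overlapped. High Fcgr1 was not particular to Cxcl9 macrophages, since the other C1q macrophages were also above the resident ones. Arg1 macrophages, a separate class, were likewise above resident ones in pooled Fcgr4 (111 against 60.2 CPM) and Fcgr2b (420 against 302 CPM). Both had overlapping ranges. Fcgr1 provided 39.2% of the activating receptor UMIs in the other C1q macrophages, 33.8% in Cxcl9 macrophages and 25.4% in resident ones.

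Fcgr1 was at 320 CPM in Cxcl9 macrophages (270 to 422 CPM over the 5 libraries with at least 10 such cells) and at 133 CPM in resident ones (66.5 to 169 CPM). Fcgr4 was at 202 CPM (137 to 227 CPM) and 60.2 CPM (32.1 to 109 CPM). Fcgr2b was at 560 CPM (391 to 677 CPM) and 302 CPM (191 to 361 CPM). All 3 ranges were apart, at 2.40-fold, 3.36-fold and 1.85-fold. Fcer1g was 1.37-fold higher with ranges apart, and Fcgr3 was 1.29-fold higher with ranges that overlapped. Fcgrt was 7.16-fold lower, with 35.5 CPM in Cxcl9 macrophages (29.8 to 54.4 CPM) and 254 CPM in resident ones (148 to 315 CPM).

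The direction was the same in 5 of 5 libraries for each of these 6 genes. Of the 6 genes, 5 had ranges apart, where 25.0% of 8135 genes did. In unambiguous cells the same 5 genes had ranges apart, where 25.1% of genes did, and Fcgr4 was 8.65-fold and Fcgr1 3.43-fold higher in Cxcl9 macrophages. The Cxcl9 macrophages had a median of 21862 UMIs per cell and the resident ones 13635. A cell with more UMIs is more likely to show a UMI of Cxcl9, and the part of depth in the difference was not tested. In number of markers 152 of 293 Cxcl9 macrophages and 339 of 1952 resident ones were tied with another class. Unambiguous cells were 162 of the Cxcl9 macrophages and 1532 of the resident ones.

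**Figure D3:**
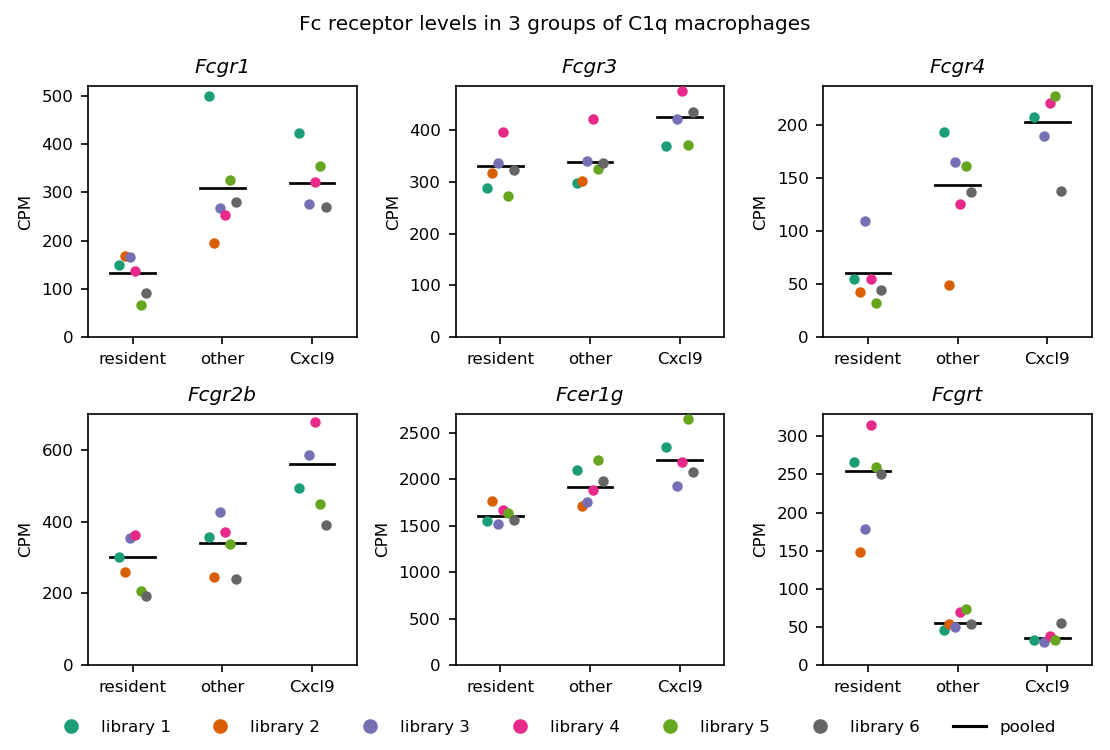
Levels in CPM (vertical axes) of 6 Fc receptor genes in resident, other and Cxcl9 C1q macrophages, 1 point for each library with at least 10 cells of the kind and a black line for the pooled value. Fcgr1, Fcgr4 and Fcgr2b are higher in Cxcl9 macrophages than in resident ones, and Fcgrt has the opposite order.

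The ratio of activating to inhibitory receptor was taken as the UMIs of Fcgr1, Fcgr3 and Fcgr4 over those of Fcgr2b. It was 6.17 in nonclassical monocytes (95% interval 4.97 to 7.66), 3.45 in granule-rich neutrophils (3.37 to 3.53), 3.07 in mature neutrophils (3.01 to 3.14), 2.77 in classical monocytes (2.71 to 2.83), 2.42 in granulocyte precursors, 1.96 in C1q macrophages (1.93 to 1.99) and 1.81 in Arg1 macrophages. It was below 1 in dendritic cells and B cells, with 0.706 in type 2 dendritic cells (0.654 to 0.762), 0.427 in type 1 dendritic cells, 0.280 in plasmacytoid dendritic cells and 0.213 in B cells (0.194 to 0.234). In clusters of plasmacytoid dendritic cells the ratio was 1.29 (1.09 to 1.53), on the other side of 1. Migratory dendritic cells were at 0.427, with a range of 0 to 2.08 over 4 libraries. Stem and progenitor cells were at 0.488 in all gated cells and at 1.80 in clusters. Those clusters held 1064 cells, of which 350 had this gate and 392 were gated as granulocyte precursors. T cells were at 1.94 (1.55 to 2.42) and NK cells at 3.45 (2.16 to 5.53), on 118 and 22 UMIs of Fcgr2b. Mast cells were at 1.47 in all gated cells and at 1.03 in unambiguous ones.

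The spread between libraries with at least 5 UMIs of Fcgr2b was wider than these intervals. In mature neutrophils the ratio was 2.62, 3.01, 1.99, 2.36, 3.96 and 4.84 in libraries 1 to 6. In classical monocytes it ran from 2.00 to 3.31 and in C1q macrophages from 1.72 to 2.77, and these ranges overlapped. Library 3 had the lowest ratio in mature and granule-rich neutrophils, classical monocytes and C1q macrophages. In type 2 dendritic cells 5 of 6 libraries were below 1 and library 1 was at 1.14.

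With unambiguous cells the ratio of mature neutrophils was 8.08, with 3.79 in library 3 as the lowest and 10.5 in library 6 as the highest, and in granule-rich neutrophils it was 5.40 (3.0 to 5.95). In C1q macrophages it remained at 1.96 (1.78 to 2.96), so every library of mature neutrophils lay above every library of C1q macrophages. In the clusters of mature neutrophils the ratio was 29.4 (15.3 to 38.3), on 344 UMIs of Fcgr2b. The size of the ratio in neutrophils thus depends on the cells counted, whereas activating UMIs outnumbered Fcgr2b in each library under each count. Among C1q macrophages the ratio was 1.73 in resident cells (1.63 to 2.41), 1.69 in Cxcl9 macrophages (1.25 to 2.15) and 2.33 in the others (1.82 to 3.13), with ranges that overlapped.

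**Figure D4:**
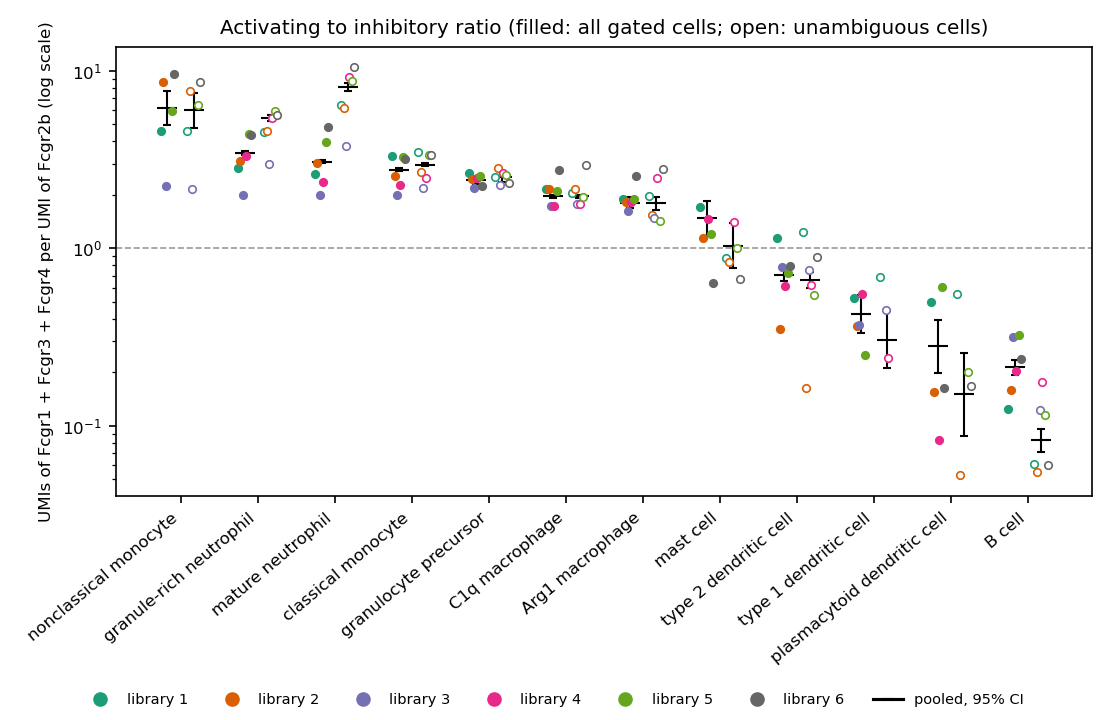
UMIs of Fcgr1, Fcgr3 and Fcgr4 per UMI of Fcgr2b (log axis) in 12 classes. Colored points are libraries with at least 5 UMIs of Fcgr2b and a ratio above 0, filled for all gated cells and open for unambiguous ones, and black bars are pooled values with 95% intervals. Neutrophils, monocytes and macrophages lie above the dashed line at 1, dendritic cells and B cells below it except for single libraries.

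Activating and inhibitory transcripts were next sought in the same cells, in unambiguous cells thinned to 3000 UMIs. Both kinds were found in 60.9% of Cxcl9 macrophages, 45.6% of other C1q macrophages, 32.0% of resident macrophages and 23.5% of classical monocytes. In mature neutrophils both were found in 3.39%, an activating receptor alone in 54.3% and Fcgr2b alone in 1.70%. Nonclassical monocytes had an activating receptor alone in 66.3% and both in 14.9%. B cells had Fcgr2b alone in 14.5% and an activating receptor in about 1.00% with or without it (0.873% alone and 0.130% with Fcgr2b). In T cells, which give the background, 1.14% held an activating receptor alone and 0.312% Fcgr2b alone. A cell without a UMI at this depth may still hold the transcript.

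**Figure D5:**
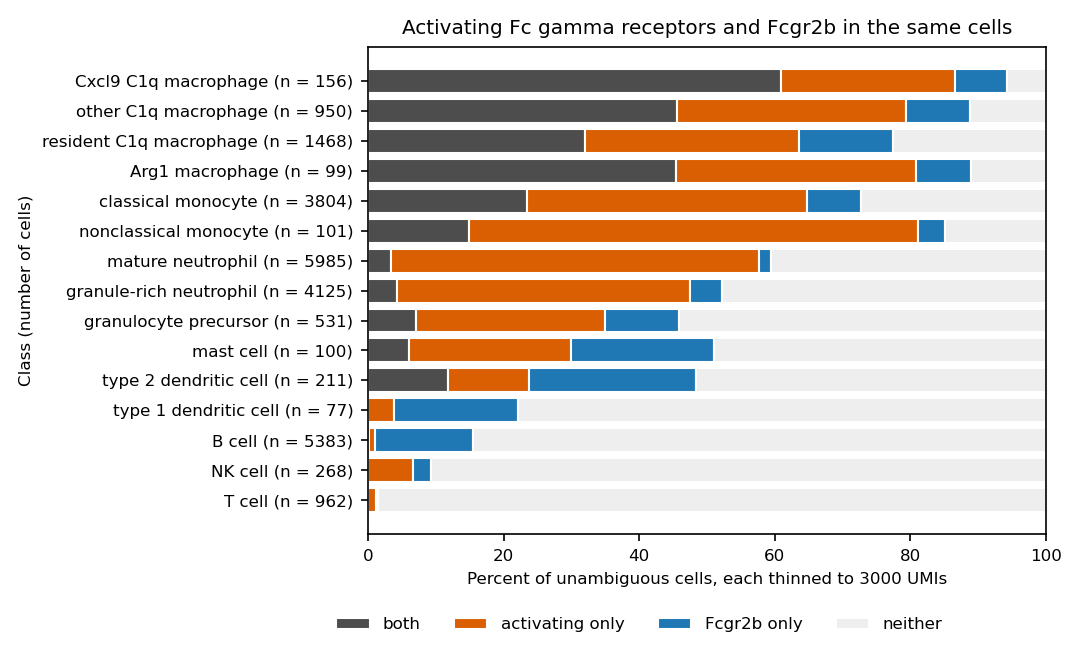
Percent of unambiguous cells (horizontal axis) of 15 classes with UMIs of an activating Fcγ receptor gene and of Fcgr2b, of either alone, or of neither, after every cell was thinned to 3000 UMIs, with the number of cells beside each class. The share with both kinds is 60.9% in Cxcl9 macrophages and 3.39% in mature neutrophils.

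The dendritic cells had less of the activating receptors than of Fcgr2b. Type 2 dendritic cells held 83.9 CPM of Fcgr3, 39.6 CPM of Fcgr1 and 11.4 CPM of Fcgr4 beside 191 CPM of Fcgr2b. Type 1 dendritic cells, which cross-present antigen, held 13.9, 9.85 and 3.39 CPM of the activating receptors beside 63.4 CPM of Fcgr2b. Their Fcgr3 was near the 13.3 CPM of T cells. In unambiguous cells it was 6.54 CPM, against 6.30 CPM in T cells. Fcgr2b was 3.01-fold and Fcer1g 3.87-fold higher in type 2 than in type 1 dendritic cells with ranges apart, so 2 of the 6 genes tested were higher in this way, where 9.27% of 7896 genes were. The values of Fcgr1 and Fcgr3 were higher in type 2 dendritic cells in 5 of 5 libraries with ranges that overlapped.

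FcRn had a pattern of its own. Fcgrt (chr7:45092990-45103851, minus strand) was at 254 CPM in resident macrophages (148 to 315 CPM) and 174 CPM in type 2 dendritic cells (86.0 to 244 CPM). It was at 145 CPM in fibroblasts (138 to 150 CPM over 4 libraries) and 102 CPM in type 1 dendritic cells (52.9 to 129 CPM). The fibroblasts were 130 cells with Ptprc in 14.6%, a remainder of cells that the CD45 sort was meant to exclude. Classical monocytes held 27.5 CPM (24.4 to 35.6 CPM), with a narrower spread between libraries than that of their Fcγ receptors. Unambiguous mature neutrophils held 7.65 CPM and T cells, counted in the same way, 6.78 CPM. At 3000 UMIs per cell Fcgrt was detected in 34.7% of C1q macrophages, 29.3% of type 2 dendritic cells and 1.78% of T cells.

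Fcer1a (chr1:173221284-173227214, minus strand), which binds IgE, was restricted to few cells. Mast cells held 283 CPM, with 349, 115, 707, 413, 213 and 172 CPM in libraries 1 to 6, and the range did not overlap with that of any other class of at least 50 cells. It was detected in 48.0% of mast cells (41.1 to 54.9%) at a median of 4811 UMIs, and in 0 of 1087 T cells at a median of 9309 UMIs, where 3 UMIs would have been 0.249 CPM. Basophils were too few for the ranges, and their 42 cells held 476 CPM pooled. Stem and progenitor cells held 10.4 CPM (0 to 28.8 CPM), with UMIs in 4.56% of the cells. Mast cells also held Fcer1g at 1219 CPM and Ms4a2, the β chain of the IgE receptor, at 394 CPM.

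Fcmr (chr1:130865669-130880791, plus strand) was held by B cells, at 187 CPM (130 to 283 CPM), and no other class of at least 50 cells exceeded 3.46 CPM. Within the B cells it separated the stages. B cells with Ms4a1 (CD20), which were 2288 cells, held 466 CPM, with 524, 437, 443, 477, 461 and 490 CPM in libraries 1 to 6. The 2539 precursor B cells, with at least 2 of Vpreb1, Vpreb3, Igll1, Dntt and Rag1, held 31.8 CPM (25.0 to 40.1 CPM). The ranges were far apart, at 14.7-fold. The spread of Fcmr between libraries was 1.20-fold within Ms4a1 B cells and 2.18-fold over all B cells.

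Fcgr2b, the Fcγ receptor that restrains B cells, was 1.84-fold higher in Ms4a1 B cells (74.9 CPM, 61.6 to 87.6 CPM) than in precursor B cells (40.8 CPM, 35.7 to 51.9 CPM), again with ranges apart. Of the 3 receptor genes that reached 10 CPM in either stage, 2 thus had ranges apart, where 32.0% of 8711 genes did. Fcgr1, Fcgr3 and Fcgr4 were below 10 CPM in both stages. Fcmr was detected in 80.9% of Ms4a1 B cells (79.3 to 82.5%), in 17.7% of precursor B cells and in 0.460% of T cells, with medians of 5673, 6163 and 9309 UMIs.

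Over all cells the levels differed between libraries, which also held the classes in different numbers. Fcgr1 was at 211 CPM in library 1 and at 37.3 CPM in library 2, Fcgr2b at 276 CPM in library 3 and at 76.3 CPM in library 6, and Fcgr3 at 251 CPM in library 4 and 138 CPM in library 2. C1q macrophages made up 704 of the cells of library 1 and 284 of those of library 2, and mature neutrophils 623 and 1173 cells. Within a class the order was partly kept. Library 1 was the highest for Fcgr1 in mature neutrophils, classical monocytes and C1q macrophages, and library 3 the highest for Fcgr4 and Fcgr2b in these 3 classes.

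The signalling partners of the receptors were examined next. All 13 genes of this list reached 10 CPM in at least 1 class. So did 12168 of all 20394 genes, with the gate markers left out. Among the 13 were the kinases Syk, Lyn, Fgr and Btk and the phosphatases Inpp5d and Ptpn6. The class with the highest pooled level was the nonclassical monocyte for 5 of the 13 genes (Lyn, Fgr, Lcp2, Ptpn6 and B2m). It was the plasmacytoid dendritic cell for 4 (Tyrobp, Plcg2, Vav1 and Inpp5d), the B cell for Syk and Btk and the mast cell for Lat2 and Ms4a2. The share of all genes that were highest in each of these classes was not computed. Lyn was at 1734 CPM in nonclassical monocytes (1111 to 2027 CPM). Plasmacytoid dendritic cells held 1651 CPM of it (1218 to 2069 CPM), with overlapping ranges. Tyrobp was at 2948 CPM in plasmacytoid dendritic cells (2809 to 3412 CPM). In mature neutrophils it was at 2743 CPM (2031 to 3023 CPM), again with overlapping ranges. Among unambiguous cells mature neutrophils held more of it, with 3170 against 3107 CPM. Fgr was at 842 CPM in nonclassical monocytes, and Inpp5d at 1010 CPM in plasmacytoid dendritic cells. Of 9 other genes of antibody-binding or Fc receptor-like proteins, 4 reached 10 CPM in a class, where 12168 of all 20394 genes did. These were Fcrla (441 CPM), Fcrl1 (73.1 CPM) and Fcer2a (56.0 CPM), each highest in B cells, and Fcrl5, at 21.3 CPM in nonclassical monocytes with a lowest library of 0. Pigr and Fcamr, which carry or bind polymeric antibodies, stayed at or below 1.36 CPM.

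The genes whose levels over the 19 classes were most like those of each receptor, by Pearson's r of log2(CPM + 1) among 12168 genes, were Ccl6, Ms4a6d and Msr1 for Fcgr1 (r = 0.963, 0.960 and 0.939). They were Clec4a2, Itgam and Lyz2 for Fcgr3 (0.945, 0.937 and 0.910) and Cd300ld, Slc11a1 and Lst1 for Fcgr4 (0.966, 0.963 and 0.951). Fcgr2b was most like Atp6v0b, Atp6v1g1 and Mefv (0.914, 0.907 and 0.904), and Fcer1g was most like Tyrobp, the gene of a second signalling chain with an activation motif (0.952), Tmbim6 and Hpcal1. Fcer1a was most like Ms4a2, Cyp11a1 and Fam110c (0.964, 0.946 and 0.938), and Fcmr was most like 2010309G21Rik, Klhl14 and 4930426D05Rik (0.966, 0.955 and 0.951). Fcgrt had no gene above 0.883, which was that of Rps6ka4, followed by Spon1 and Tnip2. The 19 points share libraries and differ in depth, and the values are given as a description.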

How the data were processed

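The authors prepared 3′ libraries of CD45+ synovial cells (Chromium, version 3.1 chemistry), aligned reads to mm10 with Cell Ranger 7, removed ambient RNA with SoupX and doublets with DoubletFinder, and filtered cells with Seurat. They deposited whole UMI counts, not scaled for depth, as one matrix of 20394 genes and 32953 cells, which also stores 1724738 zeros. No label, file or method read here ties the barcode numbers to the samples (the analysis code of the study was not used here), so the planned comparison of PEPITEM with PBS (edgeR on summed counts, with DESeq2 as an alternative) was not run. The 8 genes, the 6 markers for each of 25 classes and the partner lists were chosen with earlier results of these data known. No receptor gene was a marker. One gene of the partner list is not reported here.

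A cell joined the class with the most markers at 1 UMI or more, at least 3, and a tie went to the class with more marker UMIs. The 324 cells without a class were left out. CPM was computed from summed UMIs per class and per library. A class is described from 50 cells, a library range from 10 cells, and a gene compared between classes from 10 CPM in 1 of them, with the gate markers left out. Ranges were called apart when every library of 1 class lay above every library of the other. The libraries are of unknown treatment and are not replicates, so no standard deviation and no test is given. Shares carry Wilson 95% intervals, and thinning drew 3000 UMIs per cell without replacement. All 8 genes are reported in full, the partner genes by counts with examples, and for each gene the 3 most alike. The range comparison was tested on simulated data with counting noise only, which does not cover the spread between real libraries. Alternatives were stricter gates, clusters (Leiden, resolution 1.0, the 8 genes left out), libraries left out, library medians and stored zeros. Unambiguous cells, at least 2 markers ahead of other lineages (both neutrophil classes, and monocytes with macrophages, each taken as 1 lineage), were chosen after seeing the data. The promoter windows come from RefSeq and the positions from GENCODE vM21. Python 3.11.15, numpy 2.4.6, scipy 1.17.1, pandas 2.3.3, scanpy 1.11.5 and matplotlib 3.10.9 were used.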

Additional observations from a re-analysis of the deposited data

How the results depend on the processing

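No paired analysis was possible because no source used here links the barcode numbers to the PBS and PEPITEM samples, and the edgeR and DESeq2 comparisons of treatments were not run. The activating to inhibitory ratio stayed above 1 in neutrophils, monocytes and C1q macrophages under each alternative on the pooled cells, though its size moved. In type 2 dendritic cells it stayed below 1 when pooled, although the interval in clusters (0.932 to 1.02) included 1. There it was 1.09, 1.40 and 1.025 in libraries 1, 5 and 6 and below 1 in the others. In mature neutrophils it was 8.19 with a lead of 2 markers over every class, 29.4 in Leiden clusters, 8.08 in unambiguous cells and 2.51 without Fcgr1, and in granule-rich neutrophils it was 4.01, 5.65, 5.40 and 3.02. In classical monocytes it was 3.22, 3.36, 2.96 and 1.76 in this order. In nonclassical monocytes it was 9.34 with the lead of 2 markers and 4.84 in clusters. In C1q macrophages it was 1.81 with that lead, 2.05 in clusters and 1.31 without Fcgr1, and in type 2 dendritic cells 0.974 in clusters and 0.499 without Fcgr1. With each library left out in turn it was 2.83 to 3.28 in mature neutrophils, 3.15 to 3.71 in granule-rich neutrophils, 2.65 to 2.96 in classical monocytes, 1.89 to 2.05 in C1q macrophages and 0.651 to 0.771 in type 2 dendritic cells. Of 66 recomputed ratios, 40 moved out of the counting interval. Of 187 recomputed levels, 85 stayed within the counting interval and 12 moved by over 1.5-fold. The largest moves were in clusters of mature neutrophils, 29.6-fold for Fcgr1 (2.44 CPM) and 11.1-fold for Fcgr2b (11.7 CPM). Also among the 12 were Fcgr4 of nonclassical monocytes, which was 108 CPM in clusters, and Fcgr1 of classical monocytes, which was 70.6 CPM in clusters. Of the 653 cells in the clusters of nonclassical monocytes, 108 had that gate, and these held 537 CPM of Fcgr4. The cause of the moves was not tested. Gates read markers from the same UMIs, so shallow cells of rare classes limit these values.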
